A study of Mus musculus with 12 samples.

Results

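The methionine cycle of the mouse liver was followed through 9 enzyme genes over the 24-hr light:dark cycle. The genes Mat1a, Mat2a, Gnmt, Pemt, Ahcy, Bhmt, Bhmt2, Cbs and Cth were taken by symbol from the 20069 genes of the deposited mRNA table, and all 9 were found. All 9 also passed the expression minimum, as did 10198 genes in total. Poly(A) RNA-Seq had been performed on livers of wild-type C57BL/6 mice, adult males of 3 to 6 months kept in 12 hr of light and 12 hr of darkness for 2 weeks or longer. No genotype, drug or diet differed between samples. Time alone separated the groups, ZT2, ZT6 and ZT10 in the light and ZT14, ZT18 and ZT22 in the dark, ZT being Zeitgeber time, the hours since lights on. Each time point was sampled once in each of 2 independent series, giving 12 libraries and n = 2 per time point. The labels do not say how many animals stand behind a library, so p-values describe the spread between these libraries only. Signal is given in reads per base pair (rpbp), the mean coverage of a gene's exons, on a scale of 40000000 uniquely mapped sequences. Because it is already divided by exon length, levels can be compared between genes. In whole liver tissue, fewer cells of a type and less RNA per cell cannot be told apart.

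In the methionine cycle, methionine adenosyltransferases join methionine and ATP into S-adenosylmethionine, the methyl donor of the cell. Methyltransferases pass the methyl group on and leave S-adenosylhomocysteine, which is split into adenosine and homocysteine. Homocysteine is either remethylated to methionine or drawn off through cystathionine to cysteine, a route called transsulfuration. The liver carries out much of the methionine metabolism of the body and is the main site of several of these enzymes.

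Promoter sequences were examined for the short motifs of clock-related factors. For 7 of the 9 members, 8 promoter entries were found in the RefSeq table (build GRCm38.p6), and each matched mm9 once. In the 250 bases before the start site, the E-box CACGTG, bound by CLK:BMAL1, stood in 1 of the 8 entries, that of Cbs. It stood in 6.02% of all 32851 promoters searched the same way. The half-site AGGTCA of nuclear receptors such as REV-ERB and ROR stood in 3 of the 8, those of Gnmt (1 copy), Ahcy (1 copy) and Bhmt (3 copies), against 14% of all promoters. Bhmt was not called rhythmic and had a fitted phase of 21.1 hr, and neither of the 2 entries of Pemt, with a phase of 12.6 hr, held any of the motifs. The D-box TTATGTAA was in none of the 8 and in 0.819% of all promoters. Both strands were searched, and none of the 3 motifs contains another. A match is a description of letters and not of binding. The promoter of Cbs is shown as the E-box match, and those of Gnmt and Ahcy as the half-site matches among the rhythmic members. Each is printed in the direction of its gene, on the minus strand of mm9, with the motif in capitals (TGACCT is AGGTCA read on the other strand). The E-box of Cbs began 229 bases before the start site, and the half-sites began 181 bases before it in Gnmt and 205 bases before it in Ahcy.
Cbs, chr17:31774151-31774400: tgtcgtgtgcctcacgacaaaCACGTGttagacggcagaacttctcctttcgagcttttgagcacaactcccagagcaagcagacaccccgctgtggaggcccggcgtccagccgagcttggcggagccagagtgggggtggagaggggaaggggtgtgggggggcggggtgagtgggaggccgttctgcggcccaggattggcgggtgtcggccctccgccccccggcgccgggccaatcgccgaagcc
Gnmt, chr17:46866115-46866364: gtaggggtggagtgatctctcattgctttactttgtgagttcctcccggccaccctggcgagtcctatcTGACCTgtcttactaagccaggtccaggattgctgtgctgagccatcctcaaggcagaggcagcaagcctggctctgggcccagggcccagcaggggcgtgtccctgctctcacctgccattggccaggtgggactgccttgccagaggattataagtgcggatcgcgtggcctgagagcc
Ahcy, chr2:154900234-154900483: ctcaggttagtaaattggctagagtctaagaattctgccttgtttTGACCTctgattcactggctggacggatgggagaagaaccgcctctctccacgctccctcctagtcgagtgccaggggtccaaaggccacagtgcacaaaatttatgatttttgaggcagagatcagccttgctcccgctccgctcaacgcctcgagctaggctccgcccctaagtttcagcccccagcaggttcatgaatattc

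The 2 ZT2 libraries stood apart from the other 10 before any member was considered. Across expressed genes, the median correlation of a ZT2 library with libraries of other times was 0.942 and 0.945, and that of the other libraries lay between 0.960 and 0.971. The libraries of a time point correlated with each other at 0.975 to 0.987. Alb, the major secretory product of hepatocytes, was listed at 50445 and 53126 rpbp at ZT2 and at 93174 rpbp or more elsewhere. Of 8 hepatocyte markers, 3 were below all other libraries at ZT2 and 2 above them, and their sum was 88452 to 91036 rpbp at ZT2 against 130253 to 163007 elsewhere. This gap was that of Alb, since the other 7 markers summed to 37910.4 to 38007 rpbp at ZT2, within their range of 32674 to 40484 elsewhere. Of 7 Kupffer cell markers, 5 were above all other libraries at ZT2, and their sum was 600.2 to 600.4 rpbp against 296 to 482. The sums of the endothelial, stellate, cholangiocyte, red cell, lymphocyte, periportal and pericentral lists at ZT2 overlapped those of other times. In the cholangiocyte list, summing to 129 and 229 rpbp at ZT2 and to 63.7 to 144 elsewhere, Spp1 was at 118 and 219 rpbp at ZT2 and at most at 136 elsewhere, Sox9 reached 11.3 rpbp, and Krt19 and Krt7 stayed at or below 2.48 rpbp. Whether these differences have a part in the member values was not tested, and the rhythm and time-point results of the members are given with and without ZT2.

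All members except Mat2a were among the abundant mRNAs of the liver. The mean over the 12 libraries was highest for Bhmt at 4803 ± 964 rpbp (SD, n = 12), followed by Gnmt at 3611 ± 627, Mat1a at 3545 ± 1044 and Ahcy at 2262 ± 487. Over the day the ranges of neighbours in this order overlapped, whereas that of Ahcy lay below all values of Bhmt. Cth at 516 ± 85.0, Pemt at 449 ± 67.0, Cbs at 410 ± 108 and Bhmt2 at 367 ± 34.0 formed a lower set whose ranges also overlapped. Mat2a was lowest at 68.6 ± 6.96 rpbp, below every value of the other 8 genes. The level of Ahcy is uncertain, because only 31.0% of the 32-base windows of its exons occur once in mm9 and uniquely mapped reads alone were kept. The share was 70.5% for Mat2a, 70.8% for Bhmt, 82.6% for Bhmt2 and 95.5% or more for the other 5 genes. The reads of the study were longer than these windows, so the share of reads that map uniquely was not measured. Bhmt and Bhmt2 share 34 such windows, and 187 exon bases of Bhmt (3.37%) overlap the antisense transcript Gm15622, whose reads cannot be told apart without strand.

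**Figure D1:**
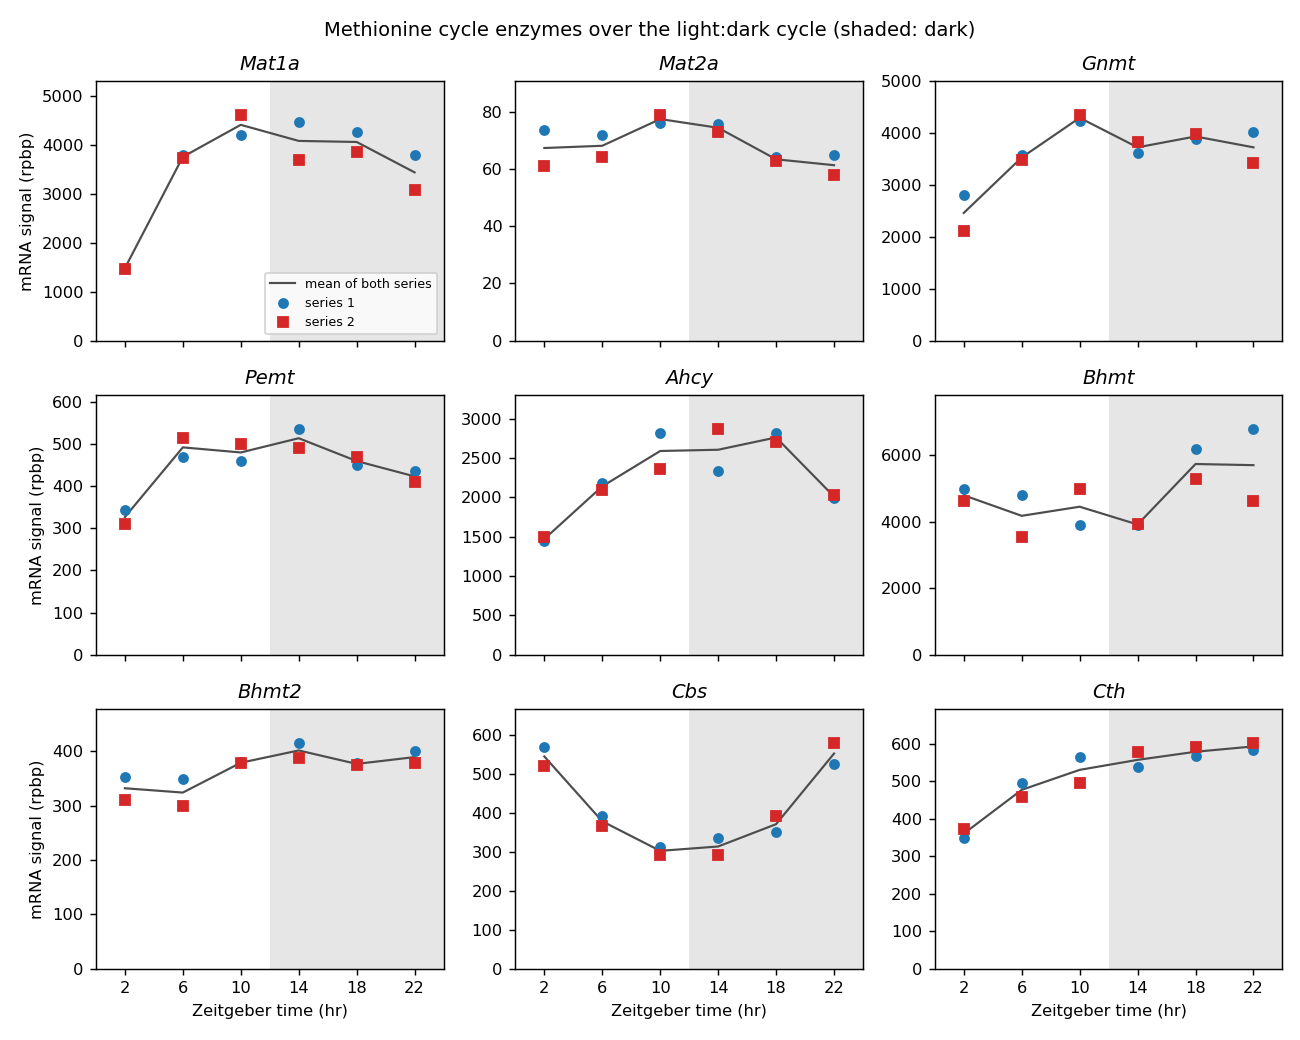
Signal of each member in rpbp (y axes from 0) against Zeitgeber time in hr (x axes), with series 1 as circles, series 2 as squares, the mean of both as a line and the dark phase shaded. Mat1a, Gnmt, Pemt, Ahcy and Cth had their lowest values at ZT2 in both series, whereas Cbs was high at ZT22 and ZT2 and low at ZT10 and ZT14.

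The 2 methionine adenosyltransferase genes followed different courses. Mat1a, the form of the adult liver, lies at chr14:41918670-41937701 on the plus strand of mm9. Its signal in series 1 and series 2 was 1492 and 1477 rpbp at ZT2, 3791 and 3735 at ZT6, 4216 and 4622 at ZT10, 4473 and 3706 at ZT14, 4268 and 3868 at ZT18, then 3807 and 3084 at ZT22. Both ZT2 libraries were far below the other 10. Among those 10, both values of ZT10 and both of ZT18 lay above all 4 of ZT6 and ZT22, and the ZT14 values spread over the ranges of the others. The ZT2 mean was 37.5% of the mean at other times, and the ratio of the highest time point to the lowest, ZT10 to ZT2, was 2.98. The share of variance taken by a 24-hr cosine (F24) was 0.604 with a peak at 13.3 hr, an amplitude (highest over lowest value) of 3.13 and a p of 0.00336 by permutation (0.0538 when adjusted). Without the ZT2 libraries, F24 was 0.491 with a permutation p of 0.0973 and an amplitude of 1.498, just under the limit of 1.5, so that Mat1a was no longer called rhythmic.

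Mat2a, the form expressed in most tissues outside the liver, lies at chr6:72382793-72389552 on the minus strand. It was measured at 73.7 and 60.8 rpbp at ZT2, 71.9 and 64.2 at ZT6, 75.9 and 78.8 at ZT10, 75.6 and 73.0 at ZT14, 64.0 and 62.6 at ZT18, then 64.8 and 57.8 at ZT22. The values of ZT10 and ZT14 were the highest of their series, and in each series the ZT18 and ZT22 values lay below that of ZT6. Its F24 of 0.611 (peak at 10.4 hr) had a permutation p of 0.0229, but its amplitude of 1.36 was under the limit of 1.5 and it was not called rhythmic. Without ZT2 its F24 was 0.798 (permutation p 0.00824) at the same amplitude. Mat1a exceeded Mat2a 22.3 ± 2.86-fold at ZT2 (SD, n = 2) and between 54.9 ± 5.94-fold and 64.2 ± 3.46-fold at the other 5 time points. As a 24-hr rhythm the ratio reached an F24 of 0.416 (permutation p 0.0347), with a p of 0.0521 after adjustment over the 3 ratios tested, and 0.530 after the same adjustment without ZT2.

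Both S-adenosylmethionine-dependent methyltransferases among the members were lowest at ZT2. Gnmt (chr17:46862613-46866117, minus strand) methylates glycine to sarcosine and thereby disposes of excess S-adenosylmethionine. Its signal was 2813 and 2109 rpbp at ZT2, 3586 and 3472 at ZT6, 4238 and 4349 at ZT10, 3623 and 3826 at ZT14, 3883 and 3985 at ZT18, then 4029 and 3419 at ZT22. The ZT2 libraries were below all others but also differed from each other, and those of ZT10 were the highest of both series. The ZT2 mean was 64.1% of the mean at other times. F24 was 0.476 (peak at 13.7 hr), close to the limit of 0.45, the amplitude was 2.06 and the permutation p was 0.0349 (adjusted to 0.159). The call ended when any of 8 single libraries was left out (either library of ZT2, ZT10 or ZT18, or that of series 2 at ZT6 or ZT22), with F24 between 0.387 and 0.477 and permutation p between 0.0504 and 0.132. Without both ZT2 libraries F24 was 0.184.

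Pemt (chr11:59784116-59859991, minus strand) methylates phosphatidylethanolamine to phosphatidylcholine, a membrane and bile lipid. It was at 343 and 309.7 rpbp at ZT2, 469 and 514 at ZT6, 459 and 500 at ZT10, 535 and 491 at ZT14, 449 and 469.5 at ZT18, then 436 and 410 at ZT22. The ZT2 values did not overlap the rest, and the ZT22 values were the next lowest. The ZT2 mean was 69.0% of that at other times. F24 was 0.616 (peak at 12.6 hr) with an amplitude of 1.73 and a p of 0.00766 by permutation (adjusted to 0.0771). Without ZT2, F24 was 0.546 with a permutation p of 0.0680 and an amplitude of 1.31.

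Ahcy, which splits S-adenosylhomocysteine (chr2:154885046-154900233, minus strand), was highest from late day to the middle of the night. Its values were 1444 and 1497 rpbp at ZT2, 2180.4 and 2099 at ZT6, 2821 and 2356 at ZT10, 2340.4 and 2869 at ZT14, 2815 and 2706 at ZT18, then 1996 and 2023 at ZT22. The ZT2 libraries were below all others, the ZT6 and ZT22 libraries lay between, and those from ZT10 to ZT18 overlapped each other above them. Its ZT2 mean was 60.8% of the mean at other times. F24 was 0.767 (peak at 14.1 hr) with an amplitude of 1.99 and a p of 0.00176 by permutation (adjusted to 0.0390). Without ZT2 its F24 was 0.617 with a permutation p of 0.0466, and the call was lost through the amplitude of 1.44.

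The betaine-homocysteine methyltransferases were not called rhythmic. Bhmt (chr13:94386846-94407916, minus strand) remethylates homocysteine with betaine as donor. Its signal was 4978 and 4626 rpbp at ZT2, 4819 and 3547 at ZT6, 3911 and 5004 at ZT10, 3912 and 3933 at ZT14, 6189.7 and 5298 at ZT18, then 6799 and 4619 at ZT22. The series were farthest apart at ZT6, ZT10 and ZT22, and only the ZT18 values and the ZT22 value of series 1 exceeded all others. The SD within a time point, pooled over the 6, was 17.5% of the mean for Bhmt and between 5.42% and 9.76% for the other members. F24 was 0.421 (peak at 21.1 hr) with a permutation p of 0.0836, and without both ZT2 libraries F24 was 0.447 (permutation p 0.130). F24 was 0.553 with a permutation p of 0.0405 without the series 2 library of ZT22 and 0.557 with a p of 0.0302 without that of ZT10.

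Bhmt2, a neighbouring gene (chr13:94425675-94444257, minus strand) whose enzyme uses S-methylmethionine as donor, was at 353 and 311 rpbp at ZT2, 349 and 299 at ZT6, 379.8 and 378 at ZT10, 415 and 388 at ZT14, 378 and 376 at ZT18, then 399.9 and 379 at ZT22. All 4 values of ZT2 and ZT6 were below the other 8. F24 was 0.586 (peak at 16.1 hr) with a permutation p of 0.0123, but the amplitude was only 1.39. Without ZT2 its F24 was 0.518 (permutation p 0.0323) at the same amplitude. Bhmt exceeded Bhmt2 between 9.78 ± 0.510-fold at ZT14 and 15.2 ± 1.61-fold at ZT18 (SD, n = 2). For this ratio F24 was 0.475, with a permutation p of 0.0622 that the adjustment over 3 ratios left at 0.0622, and without ZT2 it was 0.436 (adjusted permutation p 0.217).

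The 2 enzymes of transsulfuration followed different courses, although both had their highest mean at ZT22. Cbs, which condenses homocysteine and serine to cystathionine (chr17:31749568-31774144, minus strand), was at 569 and 520.3 rpbp at ZT2, 391 and 366 at ZT6, 313 and 292 at ZT10, 335 and 292 at ZT14, 350.2 and 392 at ZT18, then 525 and 579 at ZT22. The 4 libraries of ZT22 and ZT2 were above all 8 others, and the series agreed at each time within 9.54% of the mean (SD). Its F24 of 0.90 was the highest of the members, with a peak at 24.0 hr, an amplitude of 1.98 and a p of 2.4e-04 by permutation (adjusted to 0.0162). Without ZT2 the F24 was 0.871, the peak 23.8 hr, the amplitude 1.98 and the permutation p 4e-04 (adjusted to 0.0429). In this gene the rhythm was as large without the ZT2 libraries as with them.

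Cth cleaves cystathionine to cysteine (chr3:157557212-157588041, minus strand). It was measured at 348 and 372 rpbp at ZT2, 495 and 458 at ZT6, 565 and 495 at ZT10, 537 and 576 at ZT14, 566 and 590.0 at ZT18, then 583 and 601 at ZT22. Both ZT2 values were below the rest, each later mean was higher up to ZT22, and the ZT14 values overlapped those of ZT10 and ZT18. The ZT2 mean was 65.8% of that at other times. F24 was 0.560 (peak at 16.2 hr) with an amplitude of 1.73 and a p of 0.0222 by permutation (adjusted to 0.126). Without ZT2, F24 was 0.681 with a permutation p of 0.0240, the peak moved to 18.7 hr, and the amplitude of 1.31 fell short of the limit.

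Cth signal as a percentage of Cbs signal was 66.3 ± 7.19% at ZT2 (SD, n = 2), 126 ± 1.2% at ZT6, 175 ± 7.71% at ZT10, 179 ± 26.1% at ZT14, 156 ± 7.81% at ZT18 and 107 ± 5.10% at ZT22. Cbs mRNA therefore exceeded Cth mRNA in the ZT2 libraries alone. The log2 ratio of Cth to Cbs had an F24 of 0.843 (peak at 13.3 hr) with a permutation p of 7e-05, adjusted over 3 ratios to 2.1e-04. Without ZT2 the F24 was 0.906 and the adjusted permutation p 0.00234.

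Of the 9 members, 6 were called rhythmic (Mat1a, Gnmt, Pemt, Ahcy, Cbs and Cth), where 19.1% of all expressed genes were. A call required a permutation p under 0.05, F24 above 0.45 and an amplitude above 1.5. Strong rhythms, with F24 above 0.6 and an amplitude above 1.75, were found for Mat1a, Ahcy and Cbs, against 7.89% of expressed genes. After adjustment over all expressed genes the permutation p stayed under 0.05 for 2 of 9, Ahcy and Cbs, against 5.0% of all genes. The median F24 was 0.604 over the members and 0.310 over all expressed genes, and the median amplitude was 1.92 and 1.64. Fitted phases of 5 of the 6 rhythmic members lay between 12.6 and 16.2 hr, in the first part of the night, and that of Cbs at its end. Of all 1948 rhythmic genes, 32.1% had a phase between 10 and 18 hr.

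With both ZT2 libraries left out, 1 of the 9 members was called rhythmic, Cbs, where 15.0% of all expressed genes were. Ahcy and Cth still passed the limits on p and F24 but not that on amplitude, whereas Mat1a, Gnmt and Pemt also missed the limit on p. Bhmt2 and Mat2a passed p and F24 in both settings and the amplitude in neither. The 2 ZT2 libraries were below all 10 others for 5 of 9 members (Mat1a, Gnmt, Pemt, Ahcy and Cth), as they were for 9.58% of expressed genes. They were above all others for none of the members and for 10.4% of expressed genes.

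**Figure D2:**
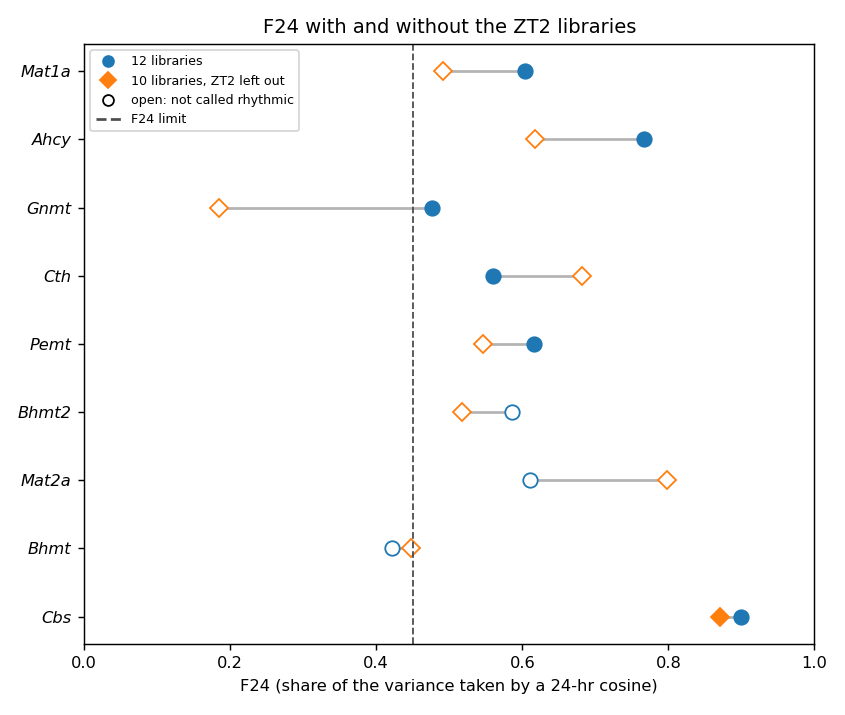
F24 of each member (x axis, 0 to 1) computed from 12 libraries (circles) and from the 10 libraries left without ZT2 (diamonds), with filled symbols where the gene was called rhythmic and a dashed line at the F24 limit. Cbs alone kept a filled diamond, at 0.871, while Gnmt fell to 0.184.

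Differences between the 6 time points were tested without assuming a cosine, with limma on log2(rpbp + 1). The moderated F-test of limma called 6 of 9 members at an adjusted p under 0.05, against 17.6% of expressed genes. The adjusted p of limma was 0.00150 for Mat1a, 0.00434 for Cbs, 0.0105 for Ahcy, 0.0120 for Cth, 0.0207 for Pemt and 0.0330 for Gnmt, and it was 0.192 for Bhmt2, 0.233 for Mat2a and 0.256 for Bhmt. Without ZT2 the same test over 5 time points called 1 member, Cbs, against 4.60% of expressed genes. With a single ZT2 library left out, fewer members passed, and fewer of all expressed genes as well. The Gnmt call of this test ended in 9 of 12 single omissions, without either library of ZT6, ZT10, ZT14 or ZT18 or series 2 of ZT2, with limma adjusted p between 0.0548 and 0.126.

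Most of the calls between neighbouring time points fell on the step from ZT2 to ZT6. Mat1a rose by 1.34 on the log2 scale (SE 0.13, 2.53-fold, limma adjusted p 6.67e-04). Pemt rose by 0.59 (SE 0.10, adjusted p 0.00698 in limma), Ahcy by 0.54 (SE 0.12, adjusted p 0.0185 in limma), Gnmt by 0.53 (SE 0.14, adjusted p 0.0309 in limma) and Cth by 0.40 (SE 0.10, adjusted p 0.0261 in limma). These 5 of 9 members stood beside 10.5% of expressed genes that rose at this step. Cbs fell by 0.52 over the same 4 hr (SE 0.11, limma adjusted p 0.0149), as did 8.59% of expressed genes. Mat2a, Bhmt and Bhmt2 differed by 0.02, -0.21 and -0.04 on the log2 scale and did not pass. Without any 1 of the 4 libraries of ZT2 and ZT6, fewer of these 6 calls were left, with that of Mat1a among them each time. The direction of each member was kept, although the Gnmt difference lay between 0.33 and 0.74 over single omissions. The F-test of limma also called fewer of all expressed genes in these omissions.

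From ZT22 to ZT2, Mat1a fell by 1.21 on the log2 scale (SE 0.13, limma adjusted p 0.00877) and Cth fell by 0.72 (SE 0.10, adjusted p 0.0164 in limma). Lower signal at ZT2 than at ZT22 was called for these 2 of 9 members and for 1.02% of expressed genes, and for neither once a ZT2 library or the series 1 library of ZT22 was left out. Gnmt, Ahcy and Pemt differed by -0.61, -0.45 and -0.37 with limma adjusted p of 0.0682, 0.110 and 0.112. No member passed at the other 4 steps, at which 0.235% (ZT6 to ZT10), 0.569% (ZT10 to ZT14), 0.235% (ZT14 to ZT18) and 0.0392% (ZT18 to ZT22) of expressed genes were called. Among these, Cbs from ZT18 to ZT22 differed by 0.57 (95% interval 0.31 to 0.83, limma adjusted p 0.159) and Ahcy by -0.46 (95% interval -0.74 to -0.18, limma adjusted p 0.243).

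**Figure D3:**
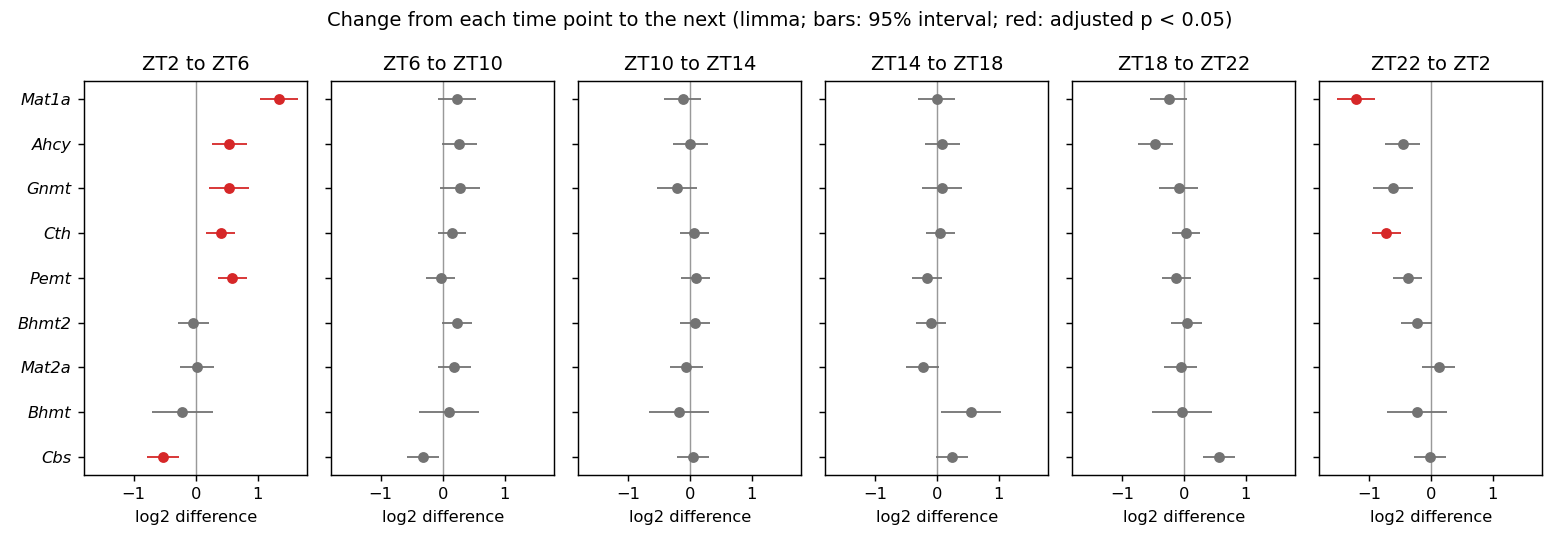
Log2 difference of each member (rows) from each time point to the next (panels), with 95% intervals from limma and red points where the adjusted p was under 0.05. Red points occur in the panels that involve ZT2 only, 6 from ZT2 to ZT6 and 2 from ZT22 to ZT2.

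The times around dusk (ZT10 and ZT14) were compared with those around dawn (ZT22 and ZT2). Higher signal around dusk was found for 4 of 9 members against 8.51% of expressed genes, by 0.91 on the log2 scale for Mat1a (limma adjusted p 6.35e-04), 0.59 for Ahcy (limma adjusted p 0.00316), 0.42 for Pemt (limma adjusted p 0.00667) and 0.41 for Gnmt (limma adjusted p 0.0237). The Gnmt call ended without either library of ZT10 or ZT14 or series 2 of ZT2 or ZT22, with limma adjusted p between 0.0506 and 0.0790. Lower signal around dusk was found for Cbs, by 0.83 (log2 difference -0.83, SE 0.08, limma adjusted p 4.56e-04), and for 9.0% of expressed genes. With dawn given by ZT22 alone, the Cbs difference was -0.84 (limma adjusted p 0.00899), beside 2.07% of expressed genes that were lower. The differences of Mat1a, Ahcy, Pemt and Gnmt were then 0.31, 0.36, 0.23 and 0.11 and did not pass in limma.

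Light against dark time points gave 2 lower members, beside 2.84% of expressed genes. Mat1a differed by -0.40 (limma adjusted p 0.0250) and Cth by -0.36 (limma adjusted p 0.0141). The Mat1a call ended without either library of ZT2 or ZT6 or that of series 1 at ZT10, ZT14 or ZT18, with limma adjusted p between 0.0507 and 0.0759, and that of Cth in none of the 12 single omissions. Ahcy was called instead without series 1 of ZT10 (log2 difference -0.32, limma adjusted p 0.0495) or of ZT14 (-0.32, limma adjusted p 0.0484), so the count stayed at 2 in those cases. When ZT2 was left out, no member passed, while 9.36% of expressed genes were called in either direction, and Mat1a turned to 0.09. The difference of Cth was then -0.20 (limma adjusted p 0.114).

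**Figure D4:**
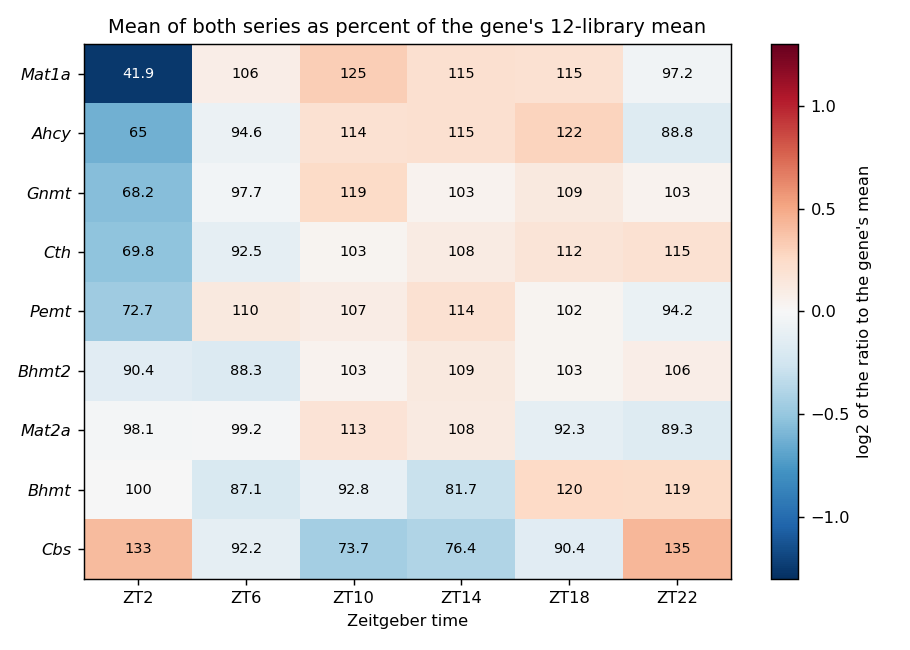
Mean of both series at each time point (columns) as a percentage of the gene's mean over 12 libraries, with members as rows and colour on a log2 scale. The ZT2 column runs from 41.9% for Mat1a to 133% for Cbs, and Mat2a, Bhmt and Bhmt2 stay between 81.7% and 120% at all times.

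The log2 difference of series 2 from series 1 was below 0 for all 9 members, between -0.16 and -0.00073 with a median of -0.09, where the median over all expressed genes was -0.01. The value of Bhmt2 was lower in series 2 at all 6 time points. The difference between series was called by limma for none of the 9 members and 0.00% of expressed genes, with 426 of 10198 genes but none of the members at an unadjusted p under 0.05. The interaction of series with the 24-hr cosine was called by limma for none of the members and 0.00% of expressed genes, with 201 genes and none of the members at an unadjusted p under 0.05. Phases in the series taken alone were 14.1 and 12.6 hr for Mat1a, 13.6 and 14.5 hr for Ahcy, 14.3 and 13.4 hr for Gnmt, 13.3 and 12.0 hr for Pemt, 15.3 and 16.9 hr for Cth and 0.506 and 23.5 hr for Cbs. F24 of Bhmt was 0.807 in series 1 and 0.239 in series 2, the widest gap among the members.

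Genes whose course resembled that of a rhythmic member were listed by Pearson's r of log2(rpbp + 1) across the 12 libraries, over 8953 genes with a mean of 8 rpbp or more. These r are descriptions across libraries that share the low ZT2 pair, and carry no p. Mat1a was nearest to Akr1d1, a reductase of bile acid synthesis (r = 0.990, 0.905 over the 10 libraries without ZT2), Agxt2l1 (0.978, 0.765) and Plekha8 (0.973, 0.804). Akr1d1 was listed at 111 and 97.6 rpbp at ZT2 and between 229 and 379.96 elsewhere. Ahcy was nearest to Ces3 (0.945, 0.823 without ZT2), the urea cycle enzyme Asl (0.941, 0.829) and Pipox, an oxidase of sarcosine and pipecolate (0.936, 0.871). Gnmt was nearest to AK008044 (0.931, 0.757 without ZT2), Akr1d1 (0.921, 0.617) and the urea cycle enzyme Ass1 (0.919, 0.812). Pemt was nearest to Ropn1l (0.967, 0.851 without ZT2), EG434197 (0.967, 0.885) and Glt1d1 (0.966, 0.875).

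Cbs was nearest to Fbxo6 (r = 0.973, 0.962 without ZT2), Serinc5 (0.961, 0.942) and Txndc15 (0.953, 0.934). Fbxo6 was at 41.9 and 38.8 rpbp at ZT2, 36.6 and 45.6 at ZT22 and between 20.04 and 31.3 at the other times. For Cth the nearest were AK188320 (0.913), Ent1 (0.912) and Gpr155 (0.892), which dropped to 0.598, 0.70 and 0.670 without ZT2. The table holds Ent1 and Slc29a1, names of the same transporter, as separate entries. Between members, the r of Mat1a with Pemt was 0.924, with Gnmt 0.909, with Ahcy 0.856 and with Cth 0.816, which became 0.594, 0.632, 0.418 and -0.316 over the 10 libraries without ZT2. With Cbs it was -0.709 and -0.726. The r of Cbs with Cth was -0.371 over 12 libraries and 0.38 over 10.

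The wider pathway was read from a list of 83 genes, of which 78 were in the table and 67 expressed. Of these, 23 were called rhythmic (34.3%, against 19.1% of all expressed genes), 15 strongly so (against 7.89% of all), 6 with an adjusted permutation p under 0.05 (against 5.0%), and 17 without the ZT2 libraries (against 15.0%). The median F24 of the list was 0.398 and its median amplitude 1.78, against 0.310 and 1.64 over all expressed genes. From ZT2 to ZT6, limma called 14 of the 67 higher and 3 lower, against 10.5% and 8.59% of all expressed genes. Around dusk 17 were higher and 8 lower than around dawn, against 8.51% and 9.0%. With dawn given by ZT22 alone, 5 were higher and 3 lower, against 1.77% and 2.07%. Overlapping transcripts were examined for the members only.

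In the group of remethylation and folate, 3 of 13 expressed genes were rhythmic (23.1%, near the 19.1% of all expressed genes). Fpgs, which adds glutamates to folates, peaked at 20.2 hr with an F24 of 0.720. In the group of choline, betaine and glycine, 3 of 11 were rhythmic (27.3%). Among them Gldc and Amt, both of the glycine cleavage system, peaked at 20.9 hr (F24 0.864) and 23.0 hr (F24 0.716). The mean of each was lowest at ZT10, at 68.6 ± 1.13 and 43.7 ± 6.19 rpbp (SD, n = 2), although the lowest Amt value, 35.6 rpbp, was that of series 2 at ZT14. Both were highest at ZT22, at 175 ± 20.2 and 83.2 ± 4.72 rpbp. The signal of Gldc was 119 and 128 rpbp at ZT2, 92.4 and 85.5 at ZT6, 67.8 and 69.4 at ZT10, 132 and 108 at ZT14, 149 and 129 at ZT18, then 189 and 161 at ZT22. Its ZT10 values were below all others and its ZT22 values above them, and its adjusted permutation p was 0.0115. Fpgs, Gldc and Amt stayed rhythmic without ZT2, whereas the remaining rhythmic gene of the choline, betaine and glycine group lost the call.

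Other methyltransferases that use S-adenosylmethionine were rhythmic in 4 of 11 expressed genes (36.4%, against 19.1% of all expressed genes). Inmt, an N-methyltransferase of indoleamines, went from 322 and 293 rpbp at ZT2 to 2548 and 2394 at ZT6 and 2874 and 2696 at ZT10, then to 1669 and 2013 at ZT14, 1733 and 1825 at ZT18, then 988 and 931 at ZT22. Its ZT2 mean was 15.6% of the mean at other times, its F24 was 0.705 with a peak at 10.9 hr and its adjusted permutation p 0.0704, and it stayed rhythmic without ZT2. Gamt, which makes creatine, peaked at 11.3 hr with an F24 of 0.694 and a ZT2 mean of 56.9% of that at other times. It kept the call without ZT2. In this group 2 of the 11 were rhythmic without ZT2, against 15.0% of all expressed genes. Among genes of S-adenosylmethionine and adenosine handling, 1 of 4 was rhythmic (25%, against 19.1%), the nucleoside transporter Slc29a1 (F24 0.632, peak at 15.2 hr), which lost the call without ZT2.

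Polyamine and methionine salvage genes were rhythmic in 6 of 10 expressed cases (against 19.1% of all expressed genes), all 6 also without ZT2 (against 15.0%). Azin1, an inhibitor of antizyme, peaked at 8.78 hr (F24 0.80, adjusted permutation p 0.0465) and Adi1, a dioxygenase of methionine salvage, at 10.2 hr (F24 0.773, adjusted permutation p 0.0401). In the group of cysteine, glutathione and taurine, 4 of 12 were rhythmic (33.3%, against 19.1%). Gsr, glutathione reductase, peaked at 3.41 hr with an F24 of 0.640, and Sqrdl, which oxidises sulfide, at 12.1 hr with an F24 of 0.527. Both lost the call without ZT2. In that setting 3 of the 12 were rhythmic (against 15.0% of all expressed genes), some of them not called with all libraries. Of 6 vitamin B12 and B6 genes, 2 were rhythmic (33.3%, against 19.1%), Pdxk, the kinase that activates vitamin B6, with a peak at 13.2 hr (F24 0.757, adjusted permutation p 0.0422), and Mmachc, of B12 handling, at 13.4 hr (F24 0.504). Pdxk kept the call without ZT2 and Mmachc lost it. Across the groups, the adjusted permutation p was over 0.05 for Fpgs (0.0536), Amt (0.0589), Gamt (0.0654), Slc29a1 (0.0840), Gsr (0.0938), Sqrdl (0.160) and Mmachc (0.186), as for Inmt.

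**Figure D5:**
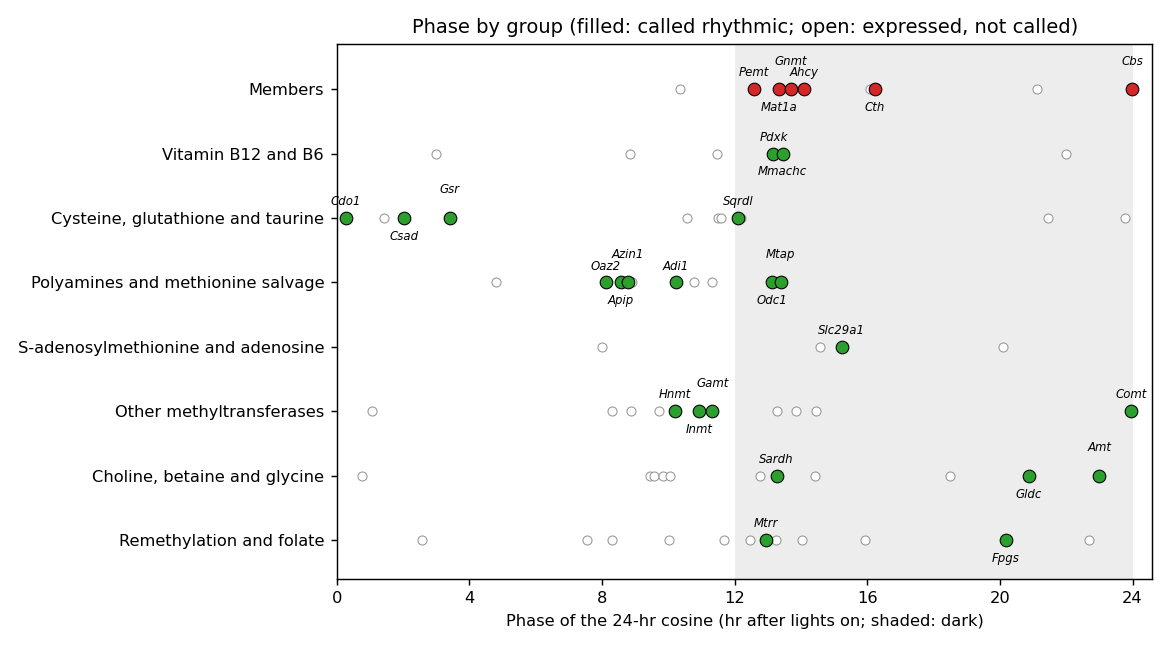
Phase of the 24-hr cosine in hr (x axis, dark phase shaded) for the members and the 7 groups of the pathway list (rows), with filled points for genes called rhythmic and open points for other expressed genes. Of the 22 rhythmic list genes drawn (1 of the 23 is left out), 12 had a phase between 10 and 18 hr, where 5 of the 6 rhythmic members and 32.1% of all 1948 rhythmic genes lie.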

How the data were processed

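Poly(A) RNA-Seq of 12 mouse liver libraries was used. Per the submitters' notes, the authors processed reads with CASAVA 1.8 and mapped them to mm9 with TopHat. The deposited signal is the coverage of flattened exons in reads per base pair, from unique mappers of either strand, scaled by the authors to 10000000 sequences, and was multiplied by 4 here. Columns headed ZT20 were taken as ZT22, as the sample labels give. The deposited F24, phase and p-value columns hold the authors' own results and were not used. The signal is not a count and carries no library totals, those listed by the study were not used here, and no counting interval was given.

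Genes with a value above 8 rpbp were tested. F24 had p from 100000 random orders (numpy 2.4.6, seed 1), from 10000 where a single library was left out, and from all 720 orders in a single series. limma 3.58.1 (R 4.3.3) was fitted to log2(rpbp + 1), with time points as groups. Adjusted p-values are by Benjamini-Hochberg over all expressed genes, those of the 3 ratios over the 3. Rhythm calls used the unadjusted permutation p unless stated. F24 and limma were also run on simulated data, with results not given here. The members and lists were chosen with earlier results of these data known. Named were all members, the 2 rhythmic genes of highest F24 per pathway group with a mean of 8 rpbp or more, and the 3 genes nearest to each rhythmic member. Of these, 1 pathway gene is not reported here. Positions are from GENCODE vM1. Alternatives were other minimums, pseudocounts, scalings, models, a series block and left-out libraries.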

Additional observations from a re-analysis of the deposited data

How the results depend on the processing

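Of 724 recomputed values with a test, 618 kept their direction and their side of the threshold, 98 lost a call, 7 gained a call and 1 changed sign. Of 264 recomputed counts, 224 stayed within 1.5 times the reported count and 40 did not. The 224 include counts of 0 that stayed 0, at the steps without a member call and between the series. The 618 include values that a setting could not move, such as F24 of a member under another expression minimum. Neither tally therefore measures how stable the positive calls are. The limits of these data are 2 libraries per time point, a signal without counting intervals, an Ahcy signal that rests on few unique exon windows, and ZT2 libraries that stand apart. Leaving out both ZT2 libraries was chosen after seeing the data. It left 1 of 6 rhythm calls among the members and 1 of 6 calls of limma's F-test. Over all expressed genes the F-test called 469 over 5 time points, beside 1792 over 6 time points. Dusk against dawn kept 1 of 5 member calls and light against dark 0 of 2, where Mat1a turned from -0.40 to 0.0854. The cause was not tested. Requiring an adjusted permutation p left 2 members, 510 genes and 6 of the pathway list. An adjusted p from a cosine fitted in limma, with the limits on F24 and amplitude kept, called 2 members, 828 genes and 10 of the list, and with the series as replicate block 2, 624 and 8. With the series mean removed as a replicate block, 6 members were called. Numbers did not pair the samples, since deviations correlated by -0.153 to 0.206 over 15 pairs of time points, 2 of them above 0.1, and the block changed no other count of member calls by over 1.5 times. With no expression minimum, 1 member differed between light and dark, a setting for which no count of this contrast over all genes is given.

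Leaving out single libraries or a whole series gave 2 to 6 rhythmic members, 286 to 2012 rhythmic genes and 4 to 23 of the list, the low values coming from a single series of 6 libraries. Leaving out single libraries gave 2 to 6 members and 724 to 1676 genes by limma's F-test, 1 to 6 members from ZT2 to ZT6, 0 to 2 from ZT22 to ZT2, 4 to 5 dusk against dawn and 1 to 2 light against dark (1 without either library of ZT2 or ZT6 or that of series 1 at ZT18). For the steps, dusk against dawn and light against dark, no count over all expressed genes is given with a single library left out. Whether the members differ from other genes in those omissions was not tested. F24 of the ratio lay between 0.293 and 0.521 for Mat2a to Mat1a, called without series 2 of ZT6, ZT14 or ZT22 or series 1 of ZT22, between 0.253 and 0.755 for Bhmt2 to Bhmt, called without series 2 of ZT22, and between 0.765 and 0.937 for Cth to Cbs, with adjusted permutation p of 0.05 and 0.183 in a single series. There 6 values allow no permutation p under 0.0167 before adjustment over 3 ratios, so these p say nothing about stability.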
